A study of Homo sapiens with 4 samples.

Results

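Chromatin accessibility was mapped by ATAC-seq, in which a transposase cuts and tags open DNA, in HepG2, a human liver cancer line, and the regions described here were 5038 promoters of protein-coding genes that were open in every library. They were chosen by called peaks. Joining peaks that shared 1 bp or more across the 4 libraries gave 80551 regions, of which 16430 held a peak in all 4 libraries, and 5038 of those had their centre within 1 kb of the 5′ end of a protein-coding gene in GENCODE (hg38). The other 11392 regions with a peak in every library are called shared distal regions below and served for comparison. They include other promoters, since 6141 of the 16430 regions lay within 1 kb of the 5′ end of some coding transcript. Of the shared distal regions 11036 lay on the primary chromosomes. Since the choice was made on the same tag counts, the levels below are a description, and a promoter that lost its peak under treatment could not be a member.

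All cells were wild-type HepG2. The 2 control libraries (Ctrl) came from untreated cells and the 2 treated libraries (Taze) from cells given 5 µM tazemetostat, dissolved in DMSO, for 48 h. Tazemetostat inhibits EZH2, the catalytic subunit of PRC2, and the question put by the study was how inhibition of EZH2 changes accessibility in a liver cancer line. The labels do not say whether the untreated cells received DMSO or whether replicates were separate cultures, so the spread between libraries may be technical and HepG2 stands for 1 line only.

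The promoter of a coding gene is the stretch around its transcription start where RNA polymerase II and general factors assemble. Most promoters of genes that every cell uses lie in CpG islands, where CpG dinucleotides have escaped methylation and nucleosomes are displaced much of the time. Promoters of genes limited to 1 tissue are more often poor in CpG and depend on tissue factors. PRC2 places the repressive mark H3K27me3, typically over CpG islands of developmental genes that are silent, and promoters that are open throughout are not its usual targets.

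Mapped tags numbered 17.2 and 23.8 M for the control libraries and 19.8 and 26.6 M for the treated ones. Peaks took up 4.32% and 5.69% of the control tags against 11.51% and 9.81% of the treated tags, so a larger share of the tags was in peaks in the treated libraries. Peaks were called with a fragment length of 200 bp in both controls and 144 bp in both treated libraries, a setting that cannot be told apart from the treatment. Of 9 hepatocyte marker genes, 4 had a member at their 5′ end, among them APOB, APOA1 and HNF4A, 1 (ALB) had a peak in some libraries and 4 had none. A member was at 0 of 3 fibroblast, 0 of 3 endothelial and 1 of 3 leukocyte markers (LYZ), and the fibroblast marker COL1A2 had a peak in some libraries.

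The DNA of the members differed from that of the shared distal regions in base composition. In the 200 bp around the centre, members had a median GC content of 66.0% and 18 CpG, and distal regions 50.0% and 3 CpG. The ratio of observed to expected CpG was 0.84 at the median in members and 0.238 in distal regions, and it was over 0.6, a usual bound for a CpG island, in 85.9% and 14.0%. The following stretch is that of the member with the most tags, with every CpG in capitals. BRMS1L, a gene for a subunit of the SIN3-HDAC corepressor, had the highest mean tag count of all members, and its stretch (chr14:35826766-35826965, + strand, 200 bp, 16 CpG) lies in an intron 428 bp downstream of the 5′ end. Here and below sequences are from hg38, and bases in annotated exons are not shown.
BRMS1L: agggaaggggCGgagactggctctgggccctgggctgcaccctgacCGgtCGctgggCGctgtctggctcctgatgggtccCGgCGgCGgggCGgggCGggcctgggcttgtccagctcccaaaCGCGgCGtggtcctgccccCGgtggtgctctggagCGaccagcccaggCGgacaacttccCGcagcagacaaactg
The printed stretch of BRMS1L had a ratio of observed to expected CpG of 0.614. In the 200 bp around the centre of this member the ratio was 0.998, above the median of the members.

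Promoter factors leave short recognisable words in such sequences. The word of SP/KLF factors (GGGCGG), searched like all others on both strands, was in 59.2% of the 5038 windows of 200 bp around member centres (95% Wilson interval 57.8 to 60.6), in 14.8% of 11036 shared distal windows on the primary chromosomes and in 46.9% of the 20033 windows centred on the 5′ end of every coding gene. For ETS factors (CCGGAAG) the shares were 15.0%, 2.64% and 10.2%, and for NFY (CCAATCA), which binds CCAAT boxes, 9.94%, 4.18% and 5.85%. YY1 (AAGATGGCG) was in 2.58%, 0.154% and 2.04%, NRF1 (GCGCATGCG), a regulator of mitochondrial genes among others, in 2.12%, 0.326% and 1.91%, and ZBTB33 (CTCGCGAGA) in 1.07%, 0.145% and 0.674%. THAP11 (ACTACAA) was in 3.16% of members, 1.94% of distal regions and 1.91% of all coding 5′ ends. E-boxes (CACGTG) were in 6.07%, 3.09% and 5.87%, and CREB/ATF sites (TGACGTCA) in 1.49%, 0.408% and 1.87%. At least 1 of these 9 words or the TATA word was in 74.5% of members and 29.1% of distal regions. Words that hold CpG are also more frequent in CpG-rich DNA, and the part of base composition in these shares was not tested.

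Words of FOXA, HNF4, HNF1, AP-1 and GATA, liver and signal-dependent factors, had the opposite order. These words hold no CpG, and the part of base composition was not tested here either. FOXA (TGTTTAC) was in 1.49% of members and 9.56% of distal regions, HNF4 (CAAAGTCCA) in 0.377% and 2.22%, HNF1 (TTAATNATT) in 0.476% and 2.69%, AP-1 (TGANTCA) in 2.34% and 11.4%, and GATA factors, with AGATAA, in 2.36% and 11.3%. For FOXA, HNF4 and HNF1 the shares at all coding 5′ ends were 1.37%, 0.2% and 0.559%, near those of the members. For AP-1 and GATA they were 3.87% and 4.51%. The insulator factor CTCF (AGGGGGCGC) was in 1.89% of members, 0.634% of distal regions and 1.56% of coding 5′ ends, and C/EBP (TTGCGCAA) in 0.139%, 0.0997% and 0.115%, with overlapping intervals. The TATA word (TATAAA) was rarer in members (2.1%) than in distal regions (6.27%) or at all coding 5′ ends (7.05%).

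**Figure D1:**
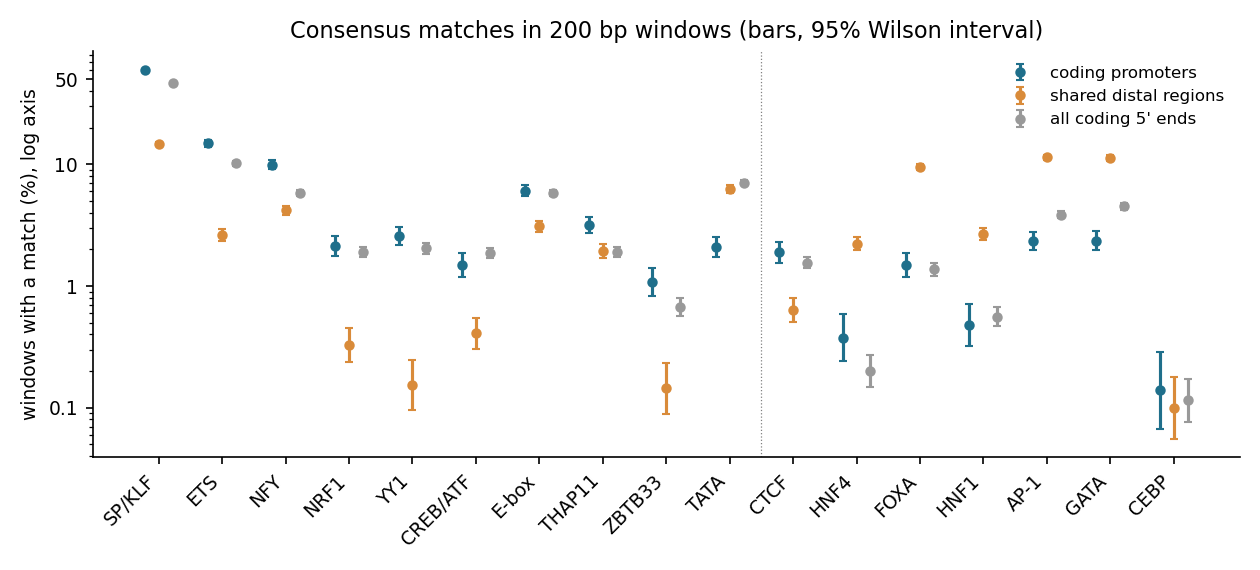
Share of 200 bp windows that hold each consensus word, in percent on a log axis, for the 5038 members, 11036 shared distal regions and 20033 coding 5′ ends. Points are shares and bars 95% Wilson intervals; SP/KLF, ETS and YY1 are more frequent in members than in distal regions, and FOXA, AP-1 and GATA less.

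The next stretches show where these words fall in members with high tag counts; capitals mark every match to a promoter word. They were picked after the values were seen, as the member with the highest mean tag count whose stretch carries an ETS, NFY, YY1 or THAP11 word, the highest divergent pair, and the highest histone member with a TATA word. MYL11 and TBC1D10B, transcribed away from each other, share the highest member between such a pair (chr16:30370734-30370933, + strand), with 1 SP/KLF word. FAM228B and SF3B6, the second a gene for a splicing factor, share a member with 2 ETS words on opposite strands and an SP/KLF word (chr2:24076374-24076525, + strand). GSK3B, a kinase of Wnt and insulin signalling, has an NFY and a TATA word (chr3:120095043-120095231, + strand). SUPT3H, a gene for a subunit of the SAGA coactivator, has YY1, NRF1 and SP/KLF words (chr6:45377954-45378153, + strand), and the NRF1 word matched on both strands at overlapping positions. SKA2, which acts at the kinetochore, and PRR11 share a member with a THAP11 word (chr17:59155261-59155460, + strand). H2BC11, a histone H2B gene, and H2AC11 share a member with 2 NFY words and a TATA word (chr6:27132796-27132995, + strand).
MYL11 and TBC1D10B: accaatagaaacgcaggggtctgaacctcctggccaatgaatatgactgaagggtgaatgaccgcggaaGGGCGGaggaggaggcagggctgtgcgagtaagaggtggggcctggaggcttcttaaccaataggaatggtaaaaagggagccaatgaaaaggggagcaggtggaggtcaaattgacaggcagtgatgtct
FAM228B and SF3B6: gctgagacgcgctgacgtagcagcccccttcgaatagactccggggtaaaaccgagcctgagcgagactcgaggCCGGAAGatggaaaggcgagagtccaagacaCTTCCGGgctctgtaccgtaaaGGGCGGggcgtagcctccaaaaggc
GSK3B: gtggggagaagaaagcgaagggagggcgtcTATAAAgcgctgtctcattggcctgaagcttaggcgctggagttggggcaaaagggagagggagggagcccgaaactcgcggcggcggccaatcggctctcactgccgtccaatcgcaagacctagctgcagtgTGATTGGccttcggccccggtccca
SUPT3H: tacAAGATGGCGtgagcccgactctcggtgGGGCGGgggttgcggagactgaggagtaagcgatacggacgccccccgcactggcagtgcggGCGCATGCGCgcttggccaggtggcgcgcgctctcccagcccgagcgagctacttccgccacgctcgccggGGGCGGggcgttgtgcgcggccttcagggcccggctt
SKA2 and PRR11: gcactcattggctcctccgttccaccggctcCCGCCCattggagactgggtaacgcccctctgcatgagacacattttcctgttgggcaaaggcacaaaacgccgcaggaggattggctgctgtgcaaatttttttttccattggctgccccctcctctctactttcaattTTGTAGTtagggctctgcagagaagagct
H2BC11 and H2AC11: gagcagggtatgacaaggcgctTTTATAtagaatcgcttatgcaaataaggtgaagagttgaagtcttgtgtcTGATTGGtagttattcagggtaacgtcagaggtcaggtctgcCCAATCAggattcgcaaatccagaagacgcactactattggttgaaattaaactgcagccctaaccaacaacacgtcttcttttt
Members that held an NFY word had a median tag count of 34.8 against 28.7 for those without, and members with an ETS word 26.5 against 29.7.

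Members sat close to the start of transcription. The centre of a member lay at a median of 2 bp upstream of the nearest coding 5′ end, with quartiles 104 bp upstream and 132.75 bp downstream, 78.8% of centres were within 250 bp, and 90.5% of members contained the 5′ end itself. A single coding 5′ end lay within 1 kb of the centre in 4121 members, 2 in 852 and more in 65. In 496 members (9.85%) the 5′ ends pointed away from each other, a divergent arrangement, with a median gap of 133 bp between them. Divergent members had a median tag count of 33.3 against 28.5 for members with 1 coding 5′ end. Members just inside the 1 kb bound (centres at 901 to 1000 bp, n = 55) had a median tag count of 26.6, and regions just outside it (1001 to 1100 bp, n = 44) 26.1. AK3, GINS2 and TRIM41 were the last members inside, at 1000, 997 and 997 bp, and regions near GLTPD2, TMEM263 and DNAJC14 were the first outside, at 1003, 1005 and 1006 bp.

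Seen from the genes, 5932 of 20046 coding genes (29.6%) had a member within 1 kb of their 5′ end. Among the 20033 on primary chromosomes, 5024 had a peak in 1 to 3 libraries only and 9077 had none. The median ratio of observed to expected CpG at the 5′ end was 0.875 for genes with a member, 0.847 for those with a peak in some libraries and 0.412 for those without any. The TATA word was in 2.61%, 4.46% and 11.4% of the same windows, and the ETS word in 18.2%, 12.2% and 3.87%. Genes called in only some libraries were therefore close to the members in CpG content and between the other groups in the ETS and TATA words.

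The members were read out by gene class. The 3 highest shares among the classes were in protein synthesis and replication. Cytosolic tRNA synthetases, which charge tRNAs, had a member at 15 of 20 genes (75.0%), genes of replication licensing at 19 of 26 (73.1%) and translation initiation factors at 39 of 56 (69.6%). Spliceosome genes (26 of 43), mitochondrial ribosomal proteins (46 of 78), mitochondrial import (13 of 23), proteasome subunits (22 of 39), chaperonins and heat shock genes (35 of 66) and cytosolic ribosomal proteins (41 of 79) lay between 51.9% and 60.5%. The nuclear-encoded respiratory chain had members at 37 of 76 genes and RNA polymerase II with Mediator at 19 of 43. The Wilson intervals of all these classes lay above the 29.6% of all coding genes.

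Replication-dependent histones, which are made in S phase, had a member at 39 of 69 genes, and 56.5% of the 5′ ends of this class held the TATA word. Since these genes lie in close pairs, 39 genes shared 28 members, 10 of them divergent. C2H2 zinc finger genes of the ZNF series, many of which encode repressors, had a member at 223 of 508 genes (43.9%). Liver classes had lower shares. The Wilson intervals of plasma proteins (24.5 to 61.2%), hepatocyte transcription factors (21.9 to 61.3%) and cytochrome P450 genes (15.5 to 37.7%) all took in the 29.6% of all coding genes. The first 2 also overlapped the intervals of the classes above. Of 24 genes for plasma proteins of hepatocytes 10 had a member (APOA1, APOA2, APOB, F2, HP, TF, AHSG, FGA, FGG and ORM1), of 20 hepatocyte transcription factors 8 (among them HNF4A, HNF4G, FOXA1, FOXA3, NR1I3, NR5A2 and ONECUT2), and of 56 cytochrome P450 genes 14. The median CpG ratio at the 5′ ends of the plasma protein class was 0.235 and of the P450 class 0.23, so the 5′ ends of both classes were mostly poor in CpG.

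The classes with the lowest shares had few members or none. Members were found at 1 of 39 HOX genes (HOXA4), 1 of 55 keratins (KRT8, a keratin of simple epithelia), 3 of 95 potassium channels, 0 of 48 clustered protocadherins and 0 of 415 olfactory receptors, where the Wilson interval reached up to 7.41% and 0.917%. The 5′ ends of the HOX class had a CpG ratio of 0.71, and 10 of the 39 genes had a peak in some of the libraries. So had 16 of the 95 potassium channels, 7 of the 48 protocadherins, 3 of the 55 keratins and 13 of the 415 olfactory receptors.

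**Figure D2:**
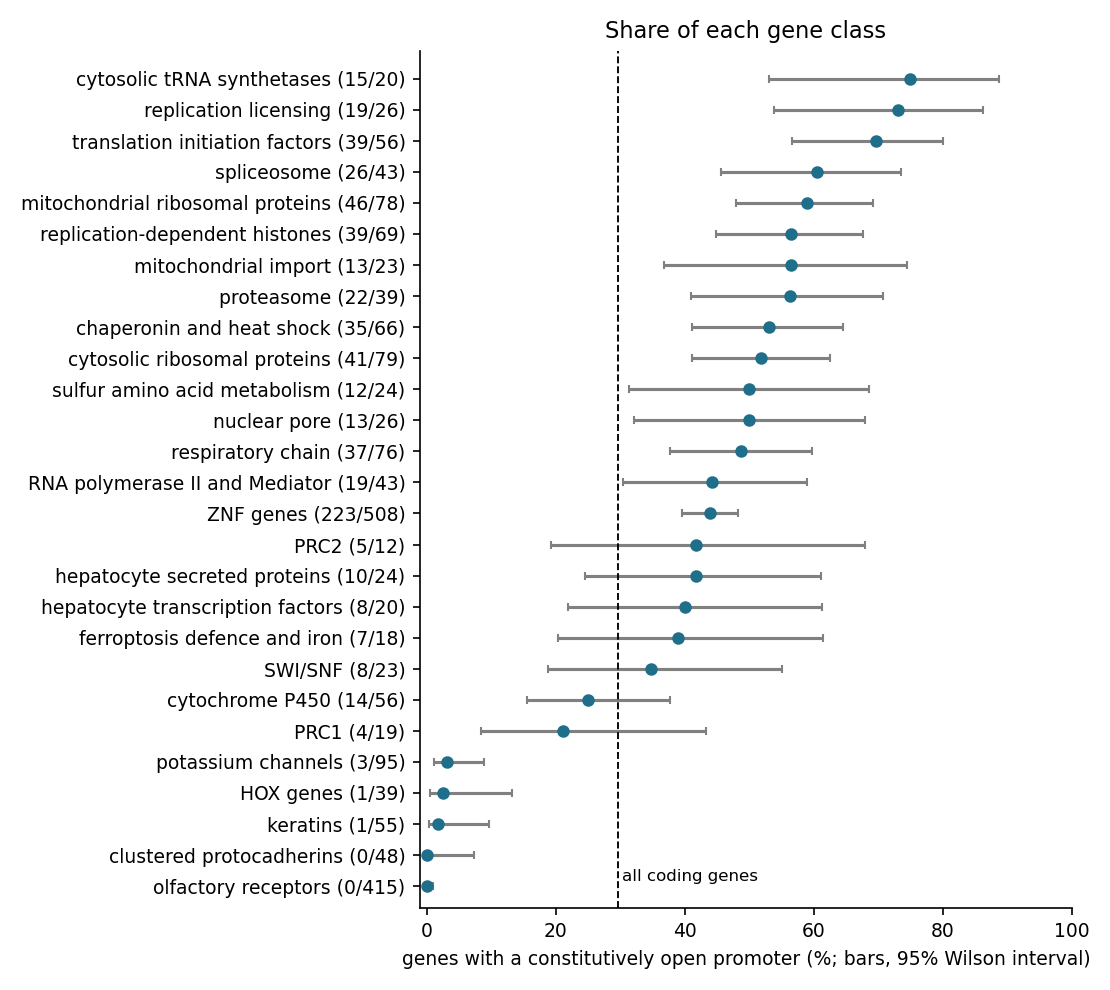
Share of the genes of each class with a member within 1 kb of the 5′ end, in percent; points are shares, bars 95% Wilson intervals, the numbers in brackets genes with a member of all genes, and the dashed line the 29.6% of all coding genes. tRNA synthetases (75.0%) are at the top, and olfactory receptors and protocadherins at 0.

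Tag counts of members varied over a wide range. The normalised tag count, the tags in a peak per 10 M mapped tags, averaged over the 4 libraries, had a median of 29.2 (10th and 90th percentiles 16.3 and 52.0) and ran from 7.69 to 142. Per library the median of the 5038 members was 19.2 and 23.9 in the controls and 40.3 and 33.9 under tazemetostat. Both treated libraries were above both controls, and the first control was the lowest. In shared distal regions the medians were 15.1, 18.1, 30.0 and 26.7, lower than the members in each library. Members with high counts also had long peaks (Spearman's rho = 0.73 across members, which share their libraries), whereas rho between tag count and CpG ratio was -0.10. The ranks of members were most alike between the treated libraries (Spearman's rho = 0.877) and least alike between the 2 controls (0.737), whose first had the fewest tags.

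The 5 highest members were at BRMS1L, RNF31, MYL11, PPM1B and PABPN1. BRMS1L had normalised tag counts of 112.8 and 121.8 in the controls and 191.5 and 143.8 under tazemetostat. At RNF31, a ubiquitin ligase gene whose region also holds the 5′ end of the proteasome activator gene PSME2, they were 71.0 and 126.5 against 199.5 and 158.1. The region of MYL11 and TBC1D10B had 111.7 and 118.5 against 171.3 and 144.2. PPM1B, a gene for a protein phosphatase, had 107.0 and 113.0 against 159.7 and 148.7, and PABPN1, a gene for a poly(A)-binding protein of the nucleus, 97.7 and 126.5 against 164.3 and 134.4. All 5 were higher in both treated libraries than in both controls, as were 81.6% of all regions with exactly 1 peak in each library. None of the 4 with 1 peak per library passed the test described below (adjusted p between 0.152 and 0.227, limma). BRMS1L, RNF31 and PABPN1 lie on chromosome 14, which carried 21 of the 100 highest members. The median over the 192 members of chromosome 14 was 32.4, below that of chromosome 20 (37.5) and chromosome 2 (36.1), and chromosome X had 18.6. The medians of shared distal regions on chromosomes 14, 20, 2 and X were 22.6, 25.9, 23.9 and 18.9.

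Within the classes the highest members were less extreme. TOMM40, the channel of mitochondrial protein import, had 75.6 and 73.1 in the controls against 136.6 and 99.8. MRPL18, a mitochondrial ribosomal protein gene, shares its member with the chaperonin gene TCP1, with 60.5 and 84.0 against 126.0 and 106.6. ATP5MC1, a subunit of ATP synthase, had 72.1 and 73.9 against 114.4 and 99.4. In each of these 3 the groups did not overlap, as in most members. The histone gene H2BC5 had 66.3 and 66.8 against 128.0 and 103.1, ZNF219 61.7 and 60.9 against 130.0 and 106.2, and MCM3, a subunit of the replicative helicase, 58.2 and 50.4 against 86.2 and 82.4. Among the 3 longest members were those at LNPEP and RAB4B. Among cytosolic ribosomal protein genes the highest member was that of RPS27A, shared with CLHC1, at 30.2 and 40.3 against 69.5 and 73.0. The highest tRNA synthetase member was at LARS1 (45.4 and 54.2 against 79.1 and 61.4), the highest initiation factor member at EIF2B4 (48.9 and 47.1 against 97.3 and 61.7) and the highest proteasome member at PSMA5 (43.0 and 46.2 against 76.6 and 64.7). Of the liver classes, APOA1, the main apolipoprotein of high-density lipoprotein, reached 49.4 and 59.2 against 78.1 and 62.5, and CYP4F12 42.5 and 49.6 against 65.5 and 65.5. The lowest members of all, at HERC5, F11 and ZBTB43, had counts between 6.3 and 10.5 in every library.

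**Figure D3:**
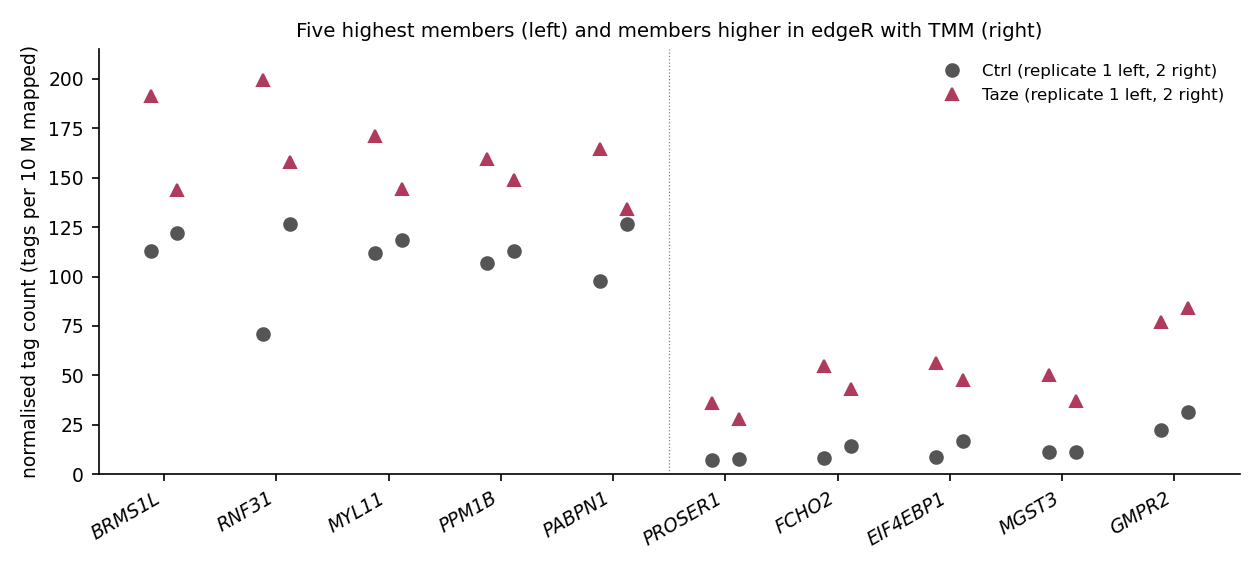
Normalised tag count (tags per 10 M mapped tags) in each of the 4 libraries, circles for controls and triangles for tazemetostat, at the 5 highest members (left) and at the 5 members called higher by edgeR with TMM factors (right). At BRMS1L the treated libraries reach 191.5 and 143.8 and the controls 112.8 and 121.8; at PROSER1 they reach 35.8 and 27.9 against 6.98 and 7.56.

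Peaks at members were longer than at distal regions in every library. The median peak length of members was 488 and 615 bp in the controls and 708 and 700 bp in the treated libraries, against 387, 475, 553 and 557 bp in shared distal regions. Over the 4504 members with exactly 1 peak in each library the medians were 481 and 588 bp against 691 and 679 bp, a mean difference of 150.5 bp (exact permutation test, two-sided, n = 2 per group, p = 0.33, the smallest this design allows). The ratio of the medians of members and distal regions was 1.249 and 1.248 in control and 1.261 and 1.23 in treated libraries, with a difference of -0.003 (exact permutation test, two-sided, n = 2 per group, p = 1.0). Members were thus longer than distal regions by a like factor in all libraries. In the first control 859 members were at the 300 bp to which single peaks were set.

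**Figure D4:**
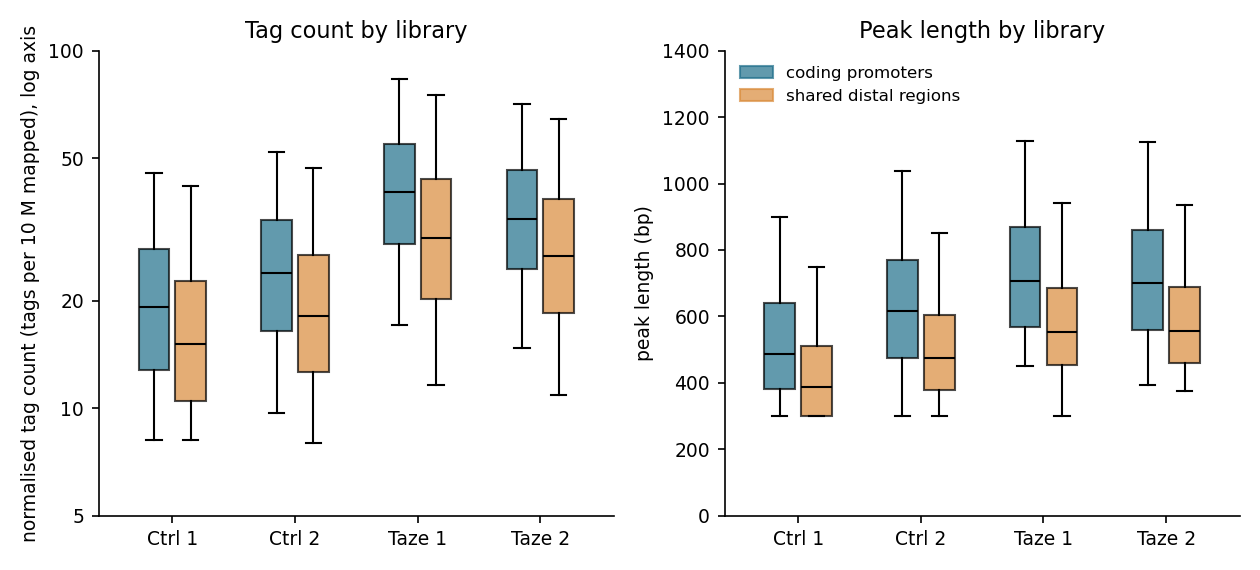
Normalised tag count (left, log axis) and peak length in bp (right) of the 5038 members and 11392 shared distal regions in each library; boxes show the quartiles and the median, whiskers the 5th and 95th percentiles. The medians of the members are 19.2, 23.9, 40.3 and 33.9 tags per 10 M and are above those of the distal regions in each library.

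To compare tazemetostat with control, log2(normalised tag count + 1) was tested with limma over the 15383 regions with exactly 1 peak in each library, 4504 of them members, at a Benjamini-Hochberg adjusted p of 0.05. The median change of the members was 0.73 on this scale, and that of all regions tested 0.70, so most of the change was shared by promoters and distal regions. Higher under tazemetostat were 1994 members (44.3%), near the 42.7% of all regions tested. In the other direction limma called 0 members lower, with 0 at an unadjusted p under 0.05 as well, where 0.247% of all regions were lower. edgeR with the mapped tags as library sizes called 2381 members higher (52.9%, all regions 48.5%) and 0 lower (all regions 0.338%). The median change of the members was 0.61 without the first treated library and 0.84 without the second. It was 0.58 without the first control and 0.84 without the second. Both treated libraries were above both controls in 3864 members (85.8%, all regions 81.6%) and below both in 11 (0.244%, all regions 1.75%).

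Once each library was centred on its median over the tested regions, the median change of the members was -0.03 and that of all regions -0.06. limma then called 0 members higher and 0 lower (0% of all regions in either direction), with 141 members higher (3.13%, all regions 3.04%) and 152 lower (3.37%, all regions 7.72%) at an unadjusted p under 0.05. edgeR with TMM factors, which scale the libraries on the tested regions, called 5 members higher (0.111%, all regions 0.15%) and 0 lower (all regions 1.13%), with 205 higher (4.55%, all regions 4.42%) and 142 lower (3.15%, all regions 6.1%) at an unadjusted p under 0.05. DESeq2 called 0 higher (all regions 0.0195%) and 0 lower (all regions 0.689%), with 59 members higher (1.31%, all regions 1.27%) and 34 lower (0.755%, all regions 2.73%) at an unadjusted p under 0.05 and 164 members without an adjusted p. All 174 regions that edgeR with TMM factors called lower, and all 38 that limma called lower on the deposited scale, were distal. The centred change spread less in members, with 10th and 90th percentiles of -0.41 and 0.40, than in shared distal regions, at -0.60 and 0.38, and the lower end made the difference.

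**Figure D5:**
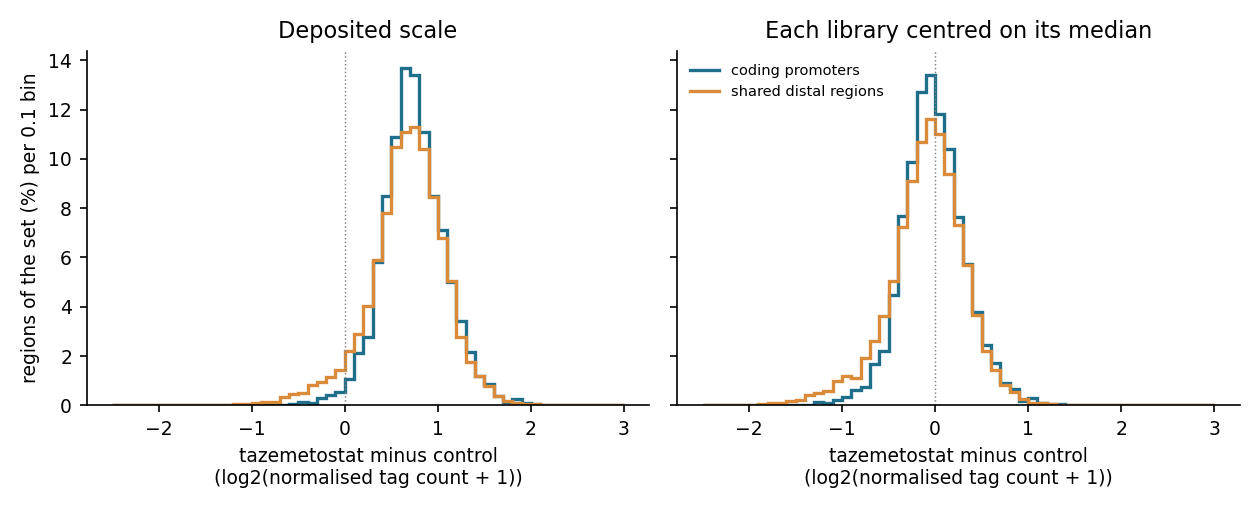
Tazemetostat minus control change in log2(normalised tag count + 1), as the share of regions in bins of 0.1, for the 5038 members and 11392 shared distal regions, on the deposited scale (left) and after centring each library on its median (right). Both sets peak near the same change, at medians of 0.73 and 0.70 on the left and -0.03 and -0.06 on the right, and the distal regions have a longer lower tail.

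The level of members relative to distal regions was compared within each library, which removes most of a difference in scale between libraries. The median log2 level of members minus that of distal regions was 0.339 and 0.359 in the controls, against 0.410 and 0.332 under tazemetostat, with a difference of 0.022 between the groups (exact permutation test, two-sided, n = 2 per group, p = 1.0). The groups overlapped, and the difference was -0.016 without the first treated library. Of all tags in peaks, members held 25.7% and 23.7% in control libraries and 19.3% and 19.1% in treated ones (exact permutation test, two-sided, n = 2 per group, p = 0.33). The controls had 26133 and 34768 peaks in all and the treated libraries 55313 and 54157. Of all mapped tags they held 1.11% and 1.35% against 2.22% and 1.87%.

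The change in tag count moved with the change in peak length. Members were split into 4 groups of near-equal size by the difference in mean peak length between the groups. In the group with the least lengthening (median 1.5 bp) limma called 99 of 1133 members higher, in the next groups 335 of 1127 and 602 of 1123, and in the group with the most (median 276 bp) 958 of 1121. Of all regions tested limma called 42.7% higher. Shared distal regions were not split in this way, so whether the pattern is particular to promoters was not tested. The median centred change went from -0.29 in the first group to 0.28 in the last. Per kilobase of peak the order was turned, with median changes of 0.48 and 0.36. The tag count of a peak and its length come from the same tags and the same caller settings, and what the fragment length setting contributes cannot be told apart from the treatment. Per kilobase, limma called 1486 members higher (33%, all regions 32.9%) and 0 lower (all regions 0.26%), with a median change of 0.43 in members and 0.41 in all regions.

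The 5 members called higher by edgeR with TMM factors were at PROSER1, FCHO2, EIF4EBP1, MGST3 and GMPR2. PROSER1, which shares its member with NHLRC3, had normalised tag counts of 6.98 and 7.56 in the controls and 35.8 and 27.9 under tazemetostat, with a log2 change of 1.40 (edgeR, adjusted p = 0.0409). Its peak was 300 and 401 bp long in the controls and 1024 and 975 bp under tazemetostat. FCHO2, a gene of early clathrin-mediated endocytosis, had 8.14 and 14.3 against 54.9 and 42.9, with a change of 1.37 (edgeR, adjusted p = 0.0181). EIF4EBP1, the gene for a repressor of cap-dependent translation, had 8.73 and 16.8 against 56.4 and 47.8, with a change of 1.27 (edgeR, adjusted p = 0.0224). These were also the 3 largest rises in limma on the deposited scale (FCHO2 2.07, EIF4EBP1 2.01 and PROSER1 1.98). In each both treated libraries were above both controls, as in 81.6% of all regions tested. MGST3, a glutathione transferase of the membrane, had 11.1 and 11.3 against 50.4 and 36.9 (edgeR, adjusted p = 0.041), and GMPR2, of purine nucleotide salvage, whose region also holds the 5′ end of NEDD8, had 22.1 and 31.5 against 77.1 and 83.9 (edgeR, adjusted p = 0.0332). None of the 5 passed in DESeq2 (adjusted p between 0.0718 and 0.320) or in limma after centring (0.136 to 0.261), and leaving out 1 library took the largest adjusted p in edgeR to between 0.0834 and 0.408. Per kilobase of peak the changes were smaller, from 0.32 at FCHO2 to 0.91 at MGST3. PROSER1 had the largest change of the 5 in edgeR with TMM factors, though not in limma, and its upstream stretch is shown (chr13:39038090-39038289, + strand, gene on the - strand); it has no match to any of the promoter words and 7 CpG.
PROSER1: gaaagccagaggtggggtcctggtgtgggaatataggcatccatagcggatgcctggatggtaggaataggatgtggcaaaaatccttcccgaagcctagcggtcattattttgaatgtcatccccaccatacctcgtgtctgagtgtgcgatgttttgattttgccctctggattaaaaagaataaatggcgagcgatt
In FCHO2, EIF4EBP1 and GMPR2 as well, the shortest control peak was 300 bp, and the treated peaks were at least 754 bp long.

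Among members with exactly 1 peak in each library, the lowest centred changes were at TMBIM6, MRPS25 and ALK, named after their values were seen. TMBIM6, an inhibitor of cell death at the endoplasmic reticulum, had 11.6 and 9.66 in the controls and 8.06 and 6.02 under tazemetostat. MRPS25 had 16.3 and 16.4 against 14.1 and 8.66, and ALK, a receptor tyrosine kinase gene, 9.89 and 10.9 against 6.55 and 7.53. The treated libraries were below the controls in all 3, as in 1.75% of all regions tested. The centred changes of -1.30, -1.28 and -1.26 did not pass (limma, adjusted p 0.138, 0.138 and 0.136). In edgeR with TMM factors the changes were -1.30, -1.26 and -1.25 and did not pass either (adjusted p 0.0932, 0.0781 and 0.101).

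Genes of the polycomb complexes were read out since tazemetostat acts on PRC2. Of 12 PRC2 genes EZH2, EZH1, JARID2, AEBP2 and RBBP4 had a member, and of 19 PRC1 genes PHC2, PCGF1, PCGF5 and YAF2. EZH2, the target of the drug, had normalised tag counts of 12.2 and 8.82 in control libraries and 32.3 and 27.9 in treated ones, with a change of 1.45 ± 0.30 (SE; limma, adjusted p = 0.00632) on the deposited scale and of 0.69 after centring (limma, adjusted p = 0.431). EZH1, the other catalytic subunit, had 30.8 and 38.7 against 51.4 and 36.1, and its groups overlapped. PCGF1 had 18.6 and 22.3 against 61.0 and 41.0, and JARID2 19.8 and 42.9 against 63.5 and 53.1. Of the 3 PRC2 members with 1 peak per library 1 was higher in limma on the deposited scale, of the 3 PRC1 members 2, beside 42.7% of all regions, and 0 in edgeR with TMM factors. The tag count at EZH2 says nothing of EZH2 protein or activity, which these libraries do not measure.

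Among 12 genes that the study names, EZH2 included, 6 had a member. SLC7A11, the cystine importer, had 18.0 and 14.7 in the controls and 30.2 and 27.5 under tazemetostat, with a change of 0.79 (limma, adjusted p = 0.04) that was 0.03 after centring. NFS1, the cysteine desulfurase of iron-sulfur cluster synthesis, shares its member with ROMO1 and had 45.4 and 42.9 against 62.5 and 44.8, with overlapping groups. PCK1, of gluconeogenesis, had 19.2 and 37.8 against 62.5 and 50.4, HNF4A, a master regulator of hepatocytes, 22.7 and 42.9 against 66.0 and 56.8, and CARF 29.1 and 21.82 against 62.5 and 42.9. The study reported H3K27me3 and EZH2 to be enriched at the CARF promoter, which these libraries do not measure. In PCK1 and HNF4A the first control was well below the second. Their changes on the deposited scale were 1.03 and 0.95 (limma, adjusted p 0.0234 and 0.0289). These changes were 0.56 and 0.5 without the first control, and larger without the second. Without the first treated library they were 0.88 and 0.84, and without the second 1.18 and 1.05. Such fits leave 1 library in a group, so whether the calls hold was not settled by them. After centring the changes of PCK1, HNF4A and CARF were 0.27, 0.19 and 0.25.

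Sulfur amino acid genes, which the study follows, had members at 12 of 24, with a median tag count of 38.2 and a median centred change of -0.04. CTH, of cysteine synthesis, had 32.0 and 45.4 against 64.5 and 64.0, GCLC, which catalyses the first step of glutathione synthesis, 32.6 and 29.0 against 71.1 and 74.5, and AHCY, of the methionine cycle, 40.7 and 36.1 against 69.0 and 51.9. On the deposited scale 4 of the 11 with 1 peak per library were higher and 0 lower in limma, where 42.7% of all regions were higher, and 0 in either direction in edgeR with TMM factors. Of 18 genes of ferroptosis defence and iron handling 7 had a member, among them NCOA4 (13.4 and 13.4 against 40.3 and 33.5) and DHODH (34.3 and 34.5 against 62.0 and 44.8), with 2 of 6 higher in limma on the deposited scale, against 42.7% of all regions. Median centred changes of the 17 classes with at least 10 members lay between -0.12 and 0.12, at 0.12 for the proteasome, 0.04 for cytosolic ribosomal proteins, -0.01 for mitochondrial ribosomal proteins, -0.08 for initiation factors, -0.06 for ZNF genes, -0.08 for plasma proteins and -0.12 for mitochondrial import, beside -0.03 for all members. The 11 classes with fewer members ranged from -0.55 (HOX, 1 member) to 0.22 (the genes named by the study, 6 members). Since limma called 0 members lower on the deposited scale (all regions 0.247%), no class could hold one.

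Of 8 genes often used as references 4 had a member, with 5 members in all, of which limma called 3 higher on the deposited scale, beside the 42.7% of all regions. TBP, the TATA-binding protein gene, which the study used for quantification of transcripts, shares its member with PSMB1 and had 21.5 and 27.3 in the controls against 64.0 and 39.9, a change of 1.03 (limma, adjusted p = 0.0197) that was 0.27 after centring. B2M, the light chain of MHC class I, had 13.4 and 10.9 against 20.7 and 14.3. The main member of PPIA, a cyclophilin gene, had 15.7 and 13.0 against 29.7 and 33.1. B2M and the second member of PPIA did not pass (adjusted p 0.175 and 0.051, limma). TBP, B2M and the main member of PPIA were higher in both treated libraries than in both controls, as were 81.6% of all regions tested. Their centred changes were 0.27, -0.28 and 0.32.

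Neither CpG content nor position separated the change. Across 4 groups of near-equal size by CpG ratio the median centred change was -0.05, -0.03, -0.01 and -0.03 while the median tag count went from 31.3 in the group with the lowest ratio to 27.8 in that with the highest. For centres within 100 bp of the 5′ end the median centred change was -0.04, for 101 to 250 bp -0.03, for 251 to 500 bp 0.01 and for 501 to 1000 bp -0.03. Median tag counts in these bins were 27.5, 30.7, 33.5 and 26.6, so that members centred somewhat off the 5′ end had the highest counts and, with a median length of 766 bp, the longest peaks.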

How the data were processed

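Reads had been trimmed by the authors (Trim Galore 0.6.6), mapped to hg38 (Bowtie2 2.3.5.1) and turned into a peak list per library (HOMER 4.11.1), as the labels and methods state. Per the file headers, 300 bp peaks at least 4-fold over the surrounding 10 kb (p-value 0.0001, false discovery rate 0.001) were stitched into regions of variable length. Any shift of tags for the cut of the transposase is not given in the sources used here.

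As deposited, the normalised tag count of a peak is a signal in tags per 10 M mapped tags. Multiplied by the mapped tags it was within 0.25 of a whole number in 100% of peaks, and these tags entered edgeR and DESeq2. The deposited score, a count of tags, was not used for levels. Of the deposited ratio columns, the fold over local background served as a filter and the clonal fold was not used, nor was the deposited p-value column.

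Peaks overlapping by 1 bp were merged, tags and lengths of several peaks in 1 library were summed, and 5′ ends were those of GENCODE release 44 genes. Groups came from the sample titles. The main test was limma 3.58.1 on log2(normalised tag count + 1), on which changes of low peaks come out too small, over all regions with 1 peak in each library, with Benjamini-Hochberg adjustment. edgeR 4.0.16 (quasi-likelihood, mapped tags as library sizes, with and without TMM) and DESeq2 1.42.0 (1492 regions without an adjusted p) were alternatives, in R 4.3.3. The exact permutation test of 2 libraries against 2 cannot go below 0.33. The fits and the merging were tested on simulated data. Consensus words were counted in 200 bp windows; Wilson intervals cover counting error only, and regions are not replicates. A region without a called peak has no value in that library.

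The members and all lists (gene classes, words, markers) were chosen with earlier results of these data known. Named are the 5 highest and 3 longest members, the largest rises in limma and edgeR, the highest of a class, the polycomb, sulfur and liver genes, reference genes and the regions next to the 1 kb bound. Sequence stretches are up to 200 bases of a member, at least 100, that no annotated exon covers, nearest to the 5′ end. A few named items and a sequence that these rules select are not reported here.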

Additional observations from a re-analysis of the deposited data

How the results depend on the processing

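The number of members was 5008 with merging at 50% overlap, 4643 with the same number of peaks per library, 4630 within 500 bp, 6141 with the 5′ ends of all coding transcripts and 5064 to 6457 when 1 library was left out of the rule; only a fold over local background of at least 8 moved it far, to 311, since it keeps fewer peaks. The median change, 0.73, was -0.03 after centring and 0.43 per kilobase, and 0.58 to 0.84 with 1 library left out. The 1994 members higher in limma became 0 after centring, 5 in edgeR with TMM factors, 0 in DESeq2 and 187 of fewer members at a fold of 8, and 0 to 2639 with 1 library left out; members lower were 0, and 0 to 1 with 1 library left out. The promoter minus distal difference of 0.022 ranged from -0.016 to 0.061 with 1 library left out, and the difference in length from 97.0 to 204.0 bp. Region by region, same-numbered libraries did not deviate together (correlation -0.002 over 15383 regions). This correlation cannot show a shift common to all regions of a library, so whether the numbers pair the libraries was not settled. With the replicate block 1543 members were higher and 0 lower, and the call at SLC7A11 was lost (adjusted p = 0.065, limma). NFS1 and B2M, which did not pass on the deposited scale (0.26 and 0.48), turned to -0.50 and -0.28 after centring, -0.45 and -0.20 in edgeR with TMM factors and -0.45 and -0.21 in DESeq2. Depth limits the low members, where 1 control peak can hold 12 tags, as at PROSER1.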

Other observations

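Promoters of hepatocyte transcription factors that were open in every library had moderate tag counts. NR1I3, a xenobiotic receptor, had 20.4 and 27.7 in the controls and 47.4 and 42.9 under tazemetostat and NR5A2, a regulator of bile acid synthesis, 12.2 and 18.1 against 28.7 and 30.9. FOXA1, a pioneer factor, whose region also holds the 5′ end of TTC6, had 33.7 and 42.9 against 58.0 and 57.6. The treated libraries were above the controls at NR1I3, NR5A2 and FOXA1, as in 81.6% of all regions tested. Over the 8 members of this class the median centred change was -0.02.

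Among plasma protein genes, HP, the gene for haptoglobin, had 9.89 and 11.3 in the controls against 35.3 and 23.3, a change of 1.36 on the deposited scale (limma, adjusted p = 0.00804) and 0.60 after centring. AHSG had 16.3 and 21.0 against 46.4 and 36.5. ORM1, for an acute-phase glycoprotein, had 39.0 and 44.1 against 63.0 and 36.9, and FGA, a fibrinogen chain, 16.9 and 34.0 against 40.8 and 42.2. The groups overlapped at ORM1. At HP, AHSG and FGA both treated libraries were above both controls, as in 81.6% of all regions tested. APOB and F2 had 2 members each. At APOB the member 844 bp downstream of the 5′ end had 23.3 and 27.3 against 50.9 and 58.3, and the one at 81 bp upstream 20.4 and 32.4 against 34.8 and 31.2.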
